A study of Homo sapiens with 16 samples.

Results

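Long intergenic non-coding RNA genes are the genes whose provisional symbols consist of LINC and a number, and 58 of them were followed here in CAL51 cells treated with CC-671. They were chosen by level: of 55510 gene symbols counted, 451 were LINC symbols, and 58 of those had a mean of at least 0.5 CPM (a gene's count scaled to the library's total over genes) over all 16 libraries. A further 125 LINC symbols had no count in any library, and 268 were counted below that minimum. The 3 genes just inside the minimum were LINC00846 at 0.564 CPM, LINC00852 at 0.549 CPM and LINC00610 at 0.524 CPM. Just outside lay LINC00882 at 0.498 CPM, LINC00910 at 0.476 CPM and LINC00304 at 0.457 CPM.

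CAL51 is an established triple-negative breast cancer line, used here at passage 10, and CC-671 is a small-molecule inhibitor of the mitotic kinase TTK and of CLK2, a kinase of splicing factors. Polyadenylated RNA was sequenced from cells given 10 µM CC-671 for 24 h (3 libraries), 3 µM for 24 h (3 libraries), DMSO vehicle for 24 h (2 libraries), 10 µM for 6 h (3 libraries), 3 µM for 6 h (3 libraries) and DMSO for 6 h (2 libraries). All libraries come from the same line, and the labels speak of 3 biological replicates, of which the vehicle groups hold 2 here, without saying whether cultures were started separately, so every p here reflects only how these libraries vary, which may be technical. The libraries held 104609173 to 123789361 read pairs at genes, no library repeated another, and the share of pairs outside annotated exons was 5.64 to 7.0% in treated libraries and 4.26 to 4.76% in vehicle libraries. What part that share had in the levels below was not tested. In bulk RNA, fewer cells expressing a gene and less RNA per cell cannot be told apart.

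Long intergenic non-coding RNAs are transcribed by RNA polymerase II from their own loci, are mostly capped, spliced and polyadenylated, and are not translated into long proteins. They act in several ways: some hold proteins away from their targets, some guide chromatin regulators, some host small RNAs in their introns, and for many no function has been described. Many are low in level and restricted to few cell types, and several of those named below have been studied in breast cancer.

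The 58 genes are a mixed class by present annotation. In the RefSeq table of GRCh38.p14, 53 matched, 31 by symbol and 22 by an older name, and 5 did not match. Of the matched genes, 6 are now listed as protein coding and 16 carry another non-coding name, such as NORAD for LINC00657, CYTOR for LINC00152 and SNHG20 for LINC00338. In GENCODE 29, which matched 50, 25 share exon sequence with another gene, 15 with a gene on the opposite strand and 14 with one on the same strand. Whether the authors counted by strand is not given in the sources used here, so reads of these genes and of their partners may be mixed. LINC00475, LINC00674, LINC00680 and LINC00888 are annotated as transcribed pseudogenes. Alignments that were not unique were tallied apart from the genes, so reads that fit near-identical copies equally well may be missing from their counts. What this did to their levels was not tested.

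The rule took its mean over 12 treated and 4 vehicle libraries. Because of this, 4 genes that were under 0.5 CPM in vehicle at both times entered through the treated libraries: LINC00475, LINC00610, LINC00846 and LINC00852. In the other direction, LINC00173, LINC00261, LINC00471 and LINC00624 had a vehicle mean of at least 0.5 CPM but an overall mean below it and stayed out. The counts of rises and falls over the 58 are therefore tilted towards rises. For the comparisons with DMSO, the counts of calls, of 2-fold changes, of groups that do not overlap and of patterns over time are also given for the 57 LINC symbols with a vehicle mean of at least 0.5 CPM.

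At 24 h, more of the LINC genes were higher than lower with CC-671. At 10 µM, 29 of 58 passed the test as higher and 13 as lower (adjusted p under 0.05 in edgeR's quasi-likelihood test over 22007 genes), where 63.6% of all tested genes passed, 31.3% higher and 32.3% lower. Their median log2 fold change was 0.22, against 0.01 over all genes tested. At 3 µM, 28 were higher and 11 lower, where 60.6% of all genes passed, 29.7% higher and 30.9% lower, and the median was 0.20, against 0.0008 over all genes. Over the 57 symbols chosen on vehicle alone, 25 were higher and 17 lower at 10 µM, with a median of 0.14, and 24 were higher and 14 lower at 3 µM, with a median of 0.07. Without a scaling factor between libraries, which moved the median of all genes to 0.12 at 10 µM and 0.10 at 3 µM, 33 LINC genes were higher and 6 lower at 10 µM and 33 were higher and 7 lower at 3 µM. That put 84.6% and 82.5% of the LINC calls on the higher side, against 69.0% and 71.8% with scaling, and 62.3% and 62.9% of the calls over all genes. The doses share their vehicle libraries, so they are not separate evidence.

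Large changes were more often rises than falls at 24 h, among the LINC genes as among all genes. At 6 h the excess of rises among the LINC genes was smaller when they were chosen on vehicle alone. Of the 58, 11 were called and at least 2-fold higher at 10 µM and 8 at 3 µM at 24 h, against 9.33% and 8.62% of all genes, and 9 at either dose at 6 h, against 10.7% and 8.5% (10 and 3 µM). At least 2-fold lower were 1 at 10 µM and none at 3 µM at 24 h, against 3.67% and 2.54% of all genes, and 2 at either dose at 6 h, against 6.77% and 4.92%. LINC00475, LINC00610 and LINC00846, which entered through the treated libraries, are among the 2-fold rises in all 4 comparisons. Over the 57 symbols chosen on vehicle alone, 8 were at least 2-fold higher and 3 lower at 10 µM and 24 h, 5 and 2 at 3 µM and 24 h, 6 and 5 at 10 µM and 6 h, and 5 and 4 at 3 µM and 6 h. Treated and vehicle libraries did not overlap for 50 of 58 at either dose at 24 h, against 77.5% and 75.4% of all genes, nor for 44 and 47 at 6 h, against 74.6% and 72.7%. Over the 57 symbols these counts were 49 at either dose at 24 h, and 43 and 46 at 6 h.

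At 6 h the class was split nearly evenly. At 10 µM, 23 of the 58 were higher and 20 lower, where 67.6% of all genes passed, 34.0% higher and 33.6% lower, and at 3 µM 23 were higher and 22 lower, where 63.2% of all genes passed, 31.6% in each direction. The medians were 0.01 in both, against 0.01 and 0.02 over all genes. Chosen on vehicle alone, 18 symbols were higher and 24 lower at 10 µM, with a median of −0.06, and 19 were higher and 26 lower at 3 µM, with a median of −0.08, so both medians changed sign. The share of LINC genes that passed was 72.4% and 67.2% at 24 h and 74.1% and 77.6% at 6 h (10 and 3 µM in that order), in each case above the share over all genes, by a difference that was not tested. Of the 52 LINC genes with at least 1 CPM in 5 libraries, 38 and 35 passed at 24 h and 39 and 41 at 6 h. The shares over all genes at that minimum were 76.2 and 72.9% at 24 h and 80.5 and 77.6% at 6 h. The LINC share was then above the share over all genes only at 3 µM and 6 h, and below it in the other comparisons.

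**Figure D1:**
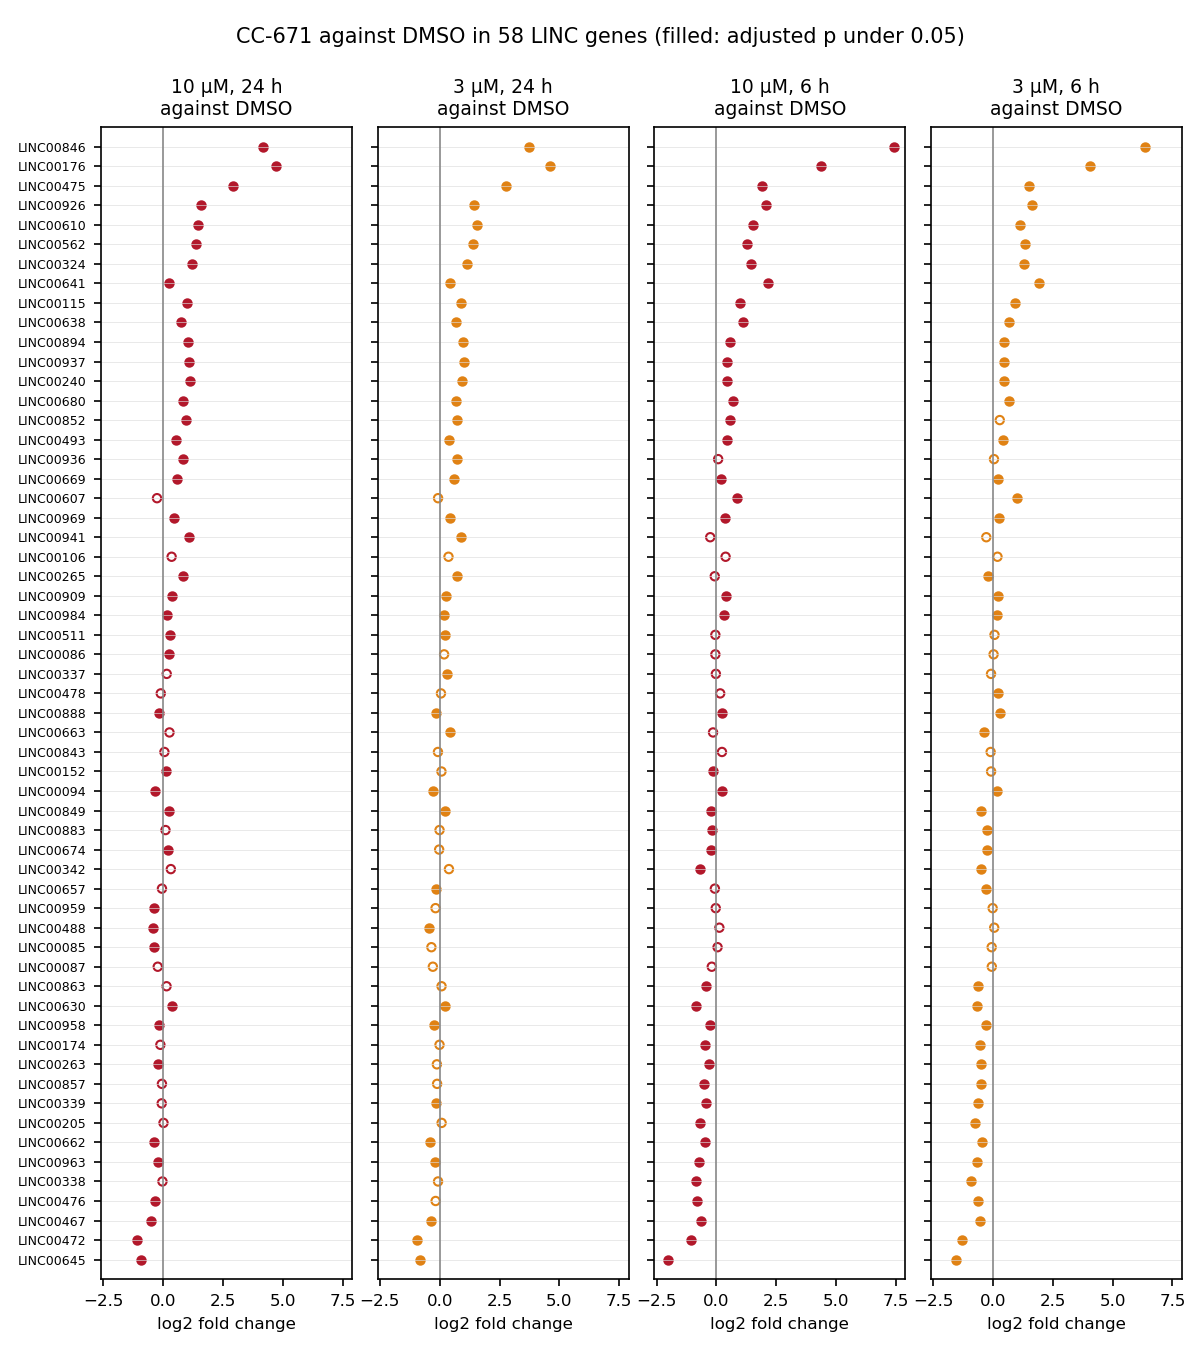
Log2 fold change (x axis) of CC-671 against DMSO for each of the 58 LINC genes (rows, ordered by their mean over the 4 comparisons), with 10 and 3 µM at 24 h in the left pair of panels and 10 and 3 µM at 6 h in the right pair. Filled points passed the test at adjusted p under 0.05; LINC00846 and LINC00176 lie far to the right in all 4 panels, and the lowest rows, LINC00645 and LINC00472, lie to the left in all 4.

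LINC00657, known as NORAD, changed little with either dose. NORAD is a cytoplasmic RNA known for its part in genome stability. The 58 genes together held 0.0766% of the read pairs at genes, with all 16 libraries pooled, and NORAD alone held 41.4% of those. Among the 50 genes with a length in GENCODE 29 it had the highest level per length, with 59.4 CPM per kilobase of exon, ahead of LINC00493 (29.8), LINC00645 (12.0), LINC00674 (11.3) and LINC00641 (10.3).

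NORAD had 331, 337 and 327 CPM in the 10 µM libraries at 24 h and 299, 316 and 312 CPM in the 3 µM libraries, against 342 and 346 CPM in DMSO. At 6 h it had 326, 310.1 and 326 CPM at 10 µM and 302, 260.1 and 268 CPM at 3 µM, against 316 and 355 CPM in DMSO. All treated libraries lay below both vehicle libraries at 24 h, whereas at 6 h the 10 µM libraries overlapped with vehicle and the 3 µM libraries lay below it. The log2 fold change was −0.05 ± 0.05 at 10 µM and −0.16 ± 0.05 at 3 µM at 24 h, and −0.06 ± 0.05 at 10 µM and −0.28 ± 0.05 at 3 µM at 6 h. It passed the test at 3 µM at both times (adjusted p = 0.0202 at 24 h and 0.000258 at 6 h) and not at 10 µM. The call at 3 µM and 24 h was lost under 5 of 13 other settings, among them no scaling factor (adjusted p = 0.457) and the fits without vehicle replicate 1 (0.0657), vehicle replicate 2 (0.0895) or 3 µM replicate 1 (0.0657) of that time.

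LINC00176 rose steeply at both doses and both times. Now named C20orf204 and listed as protein coding in RefSeq, it has been studied as a non-coding RNA of liver cancer cells. It had 12.5, 13.5 and 11.0 CPM at 10 µM and 12.6, 10.4 and 10.7 CPM at 3 µM after 24 h, against 0.427 and 0.502 CPM in DMSO. After 6 h it had 12.5, 10.2 and 13.6 CPM at 10 µM and 10.0, 9.99 and 9.34 CPM at 3 µM, against 0.576 and 0.602 CPM in DMSO. The lowest of the 12 treated libraries, at 9.34 CPM, lay far above the highest vehicle library, at 0.602 CPM. The log2 fold changes were 4.73 ± 0.19 and 4.60 ± 0.19 at 24 h (10 and 3 µM; adjusted p = 2.18e-11 and 4.38e-11), and 4.36 ± 0.18 and 4.05 ± 0.18 at 6 h (1.58e-11 and 5.97e-11). The difference between the effects at the 2 times did not pass (0.37 ± 0.35 at 10 µM and 0.55 ± 0.35 at 3 µM, adjusted p = 0.394 and 0.214).

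LINC00846 was close to silent in vehicle and rose at both times, with more counts at 6 h. It overlaps TCP10L, a gene mainly expressed in testis, on the same strand and shares exon sequence with it in GENCODE 29. It had 47, 53 and 24 read pairs in the 10 µM libraries and 27, 29 and 33 in the 3 µM libraries at 24 h, against 3 and 1 in DMSO. At 6 h it had 201, 179 and 166 pairs at 10 µM and 85, 90 and 90 at 3 µM, against 0 and 2 in DMSO. With so few vehicle counts the ratio of depth-scaled counts is wide. It was 20.2 (95% interval, 7.70 to 75.4) at 10 µM and 14.8 (5.58 to 55.5) at 3 µM at 24 h, and 194.4 (53.6 to 1609) at 10 µM and 94.1 (25.8 to 781) at 3 µM at 6 h. These exact intervals cover counting error only. TCP10L moved with it, with log2 fold changes of 3.65 ± 0.66 and 3.17 ± 0.72 at 24 h and 6.00 ± 0.60 and 5.40 ± 0.66 at 6 h (10 and 3 µM), and the reads of the 2 genes cannot be told apart here.

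LINC00475, the pseudogene-derived gene, also entered through the treated libraries. It had 1.11, 1.51 and 1.33 CPM at 10 µM and 1.31, 1.29 and 0.987 CPM at 3 µM at 24 h, against 0.151 and 0.197 CPM in DMSO. It had 1.03, 0.930 and 0.935 CPM at 10 µM and 0.690, 0.789 and 0.702 CPM at 3 µM at 6 h, against 0.209 and 0.310 CPM in DMSO. The groups did not overlap in any of the 4 comparisons, and the treated means were higher at 24 h than at 6 h. It changed by 2.91 ± 0.22 and 2.78 ± 0.22 on the log2 scale at 24 h, and by 1.90 ± 0.20 and 1.49 ± 0.21 at 6 h (10 and 3 µM).

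A set of moderate rises held at both doses and both times. LINC00562, a single-exon gene that overlaps SUCLA2 on the same strand, had 2.93 ± 0.104 and 2.95 ± 0.126 CPM at 24 h (10 and 3 µM; SD, n = 3 each), against 1.13 ± 0.0937 CPM in DMSO (n = 2). At 6 h it had 3.05 ± 0.0758 and 3.16 ± 0.0743 CPM, against 1.25 ± 0.0813 CPM in DMSO. Its log2 fold changes were between 1.28 and 1.39 in all 4 comparisons, while SUCLA2, a subunit of the mitochondrial succinyl-CoA ligase, lay between −0.06 and 0.13 and passed, as higher, only at 3 µM and 6 h. LINC00610 had log2 fold changes of 1.44 ± 0.22 and 1.56 ± 0.22 at 24 h and 1.53 ± 0.20 and 1.14 ± 0.21 at 6 h, and it is another of the genes that were under the minimum in vehicle. LINC00115 had 0.98 ± 0.13 and 0.89 ± 0.13 at 24 h and 1.00 ± 0.13 and 0.91 ± 0.13 at 6 h. LINC00638, named VESTAR in RefSeq, had 0.75 ± 0.15 and 0.67 ± 0.15 at 24 h and 1.12 ± 0.14 and 0.65 ± 0.15 at 6 h. Every one of these values of the LINC genes passed the test.

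**Figure D2:**
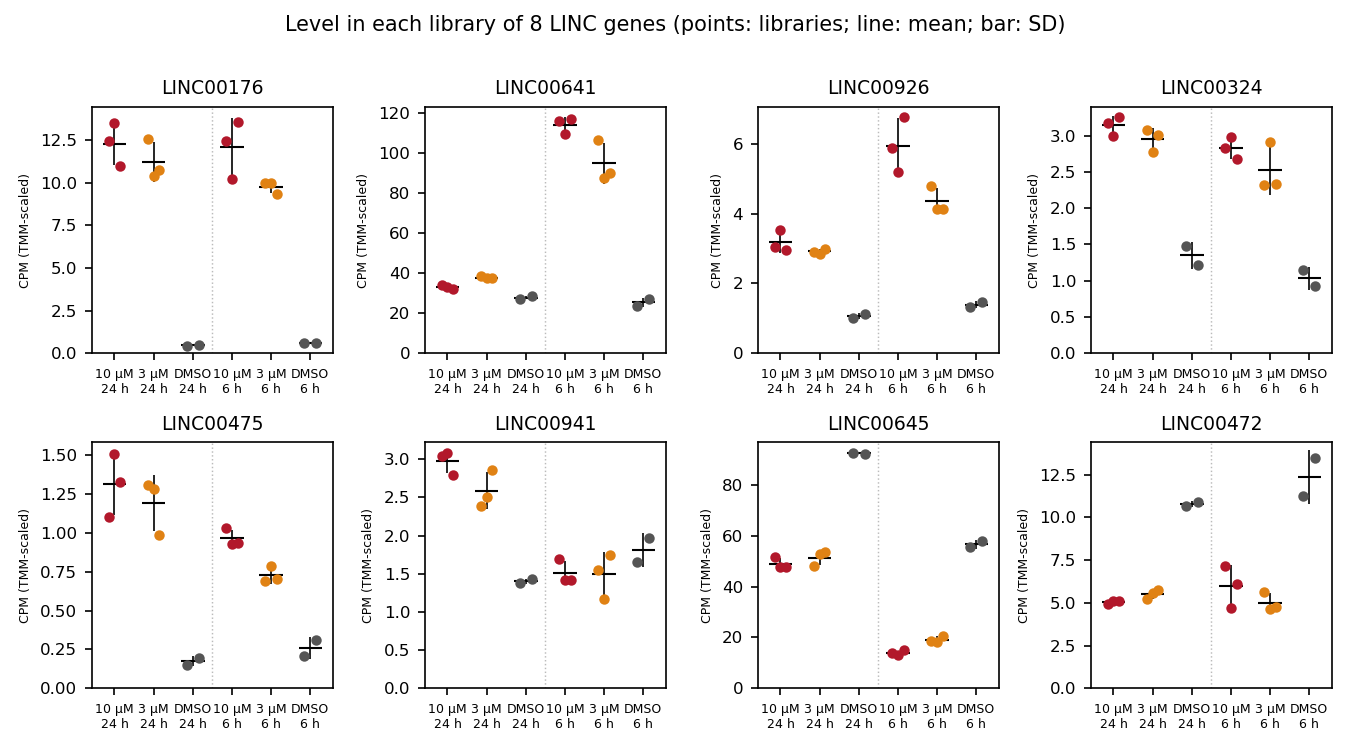
Level (y axis, CPM scaled by TMM, linear and starting at 0) of 8 LINC genes in each library (points), with the group mean (horizontal line) and SD (vertical line). In each panel the 24 h groups lie left of the dotted line and the 6 h groups right of it, each as 10 µM, 3 µM and DMSO; LINC00176 sits between 9.34 and 13.6 in treated libraries and at 0.602 or less in vehicle, and LINC00641 stands at 87.8 or more in treated libraries at 6 h and at 38.4 or less in all other libraries.

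LINC00641, also among the 5 highest per length, rose steeply at 6 h and was only slightly higher at 24 h. It had 34.2, 33.3 and 32.3 CPM at 10 µM and 38.4, 37.3 and 37.5 CPM at 3 µM at 24 h, against 27.3 and 28.3 CPM in DMSO. It had 116, 109.6 and 117 CPM at 10 µM and 107, 87.8 and 90.3 CPM at 3 µM at 6 h, against 23.7 and 27.0 CPM in DMSO. The groups did not overlap in any comparison, and vehicle libraries of the 2 times lay close together. The log2 fold change was 0.26 ± 0.08 at 10 µM and 0.44 ± 0.08 at 3 µM at 24 h, and 2.17 ± 0.08 at 10 µM and 1.90 ± 0.08 at 3 µM at 6 h. The 24 h effect was lower than the 6 h effect by the test of the difference (−1.91 ± 0.11 at 10 µM, adjusted p = 1.26e-09, and −1.46 ± 0.11 at 3 µM, adjusted p = 3.71e-08). The small rise at 10 µM and 24 h did not pass when vehicle replicate 1 of that time was left out (adjusted p = 0.0734).

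LINC00926 and LINC00324 rose at both times. LINC00926, reported in breast cancer as a regulator of the glycolytic enzyme PGK1, had 3.03, 3.54 and 2.96 CPM at 10 µM and 2.90, 2.85 and 2.99 CPM at 3 µM at 24 h, against 1.01 and 1.13 CPM in DMSO. It had 5.87, 5.18 and 6.76 CPM at 10 µM and 4.79, 4.13 and 4.13 CPM at 3 µM at 6 h, against 1.32 and 1.46 CPM in DMSO. The log2 fold changes were 1.57 ± 0.13 and 1.44 ± 0.13 at 24 h (10 and 3 µM), and 2.09 ± 0.11 and 1.65 ± 0.12 at 6 h. LINC00324 had 3.14 ± 0.135 and 2.95 ± 0.160 CPM at 24 h, against 1.35 ± 0.181 CPM in DMSO, and 2.83 ± 0.158 and 2.52 ± 0.344 CPM at 6 h, against 1.03 ± 0.157 CPM in DMSO. Its log2 fold changes were 1.22 ± 0.12 and 1.13 ± 0.12 at 24 h and 1.45 ± 0.12 and 1.29 ± 0.12 at 6 h. For both genes every treated library lay above both vehicle libraries of its time.

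LINC00176, LINC00641, LINC00926 and LINC00324 share a position that the rule for the class did not use. In GENCODE 29 each begins within 5000 bases downstream of the end of a protein-coding gene on the same strand and overlaps no coding gene on that strand: LINC00176 after PRPF6, a factor of the spliceosomal tri-snRNP, at 1244 bases, LINC00641 after HNRNPC, an RNA-binding protein of nuclear transcripts, at 2236 bases, LINC00926 after TCF12, a helix-loop-helix transcription factor, at 1084 bases, and LINC00324 after CTC1, a subunit of the telomere-binding CST complex, at 778 bases. All 4 passed as higher in all 4 comparisons. Of the 50 placed genes, 2 more begin that close to a coding gene but also overlap one on the same strand: LINC00846, at 2941 bases, was higher in all 4 comparisons, and LINC00852, at 3201 bases from the end of TATDN2, was higher in 3. The median log2 fold change of the 4 genes without such an overlap was 1.39 and 1.28 at 24 h and 2.13 and 1.78 at 6 h (10 and 3 µM). The position was singled out after their values were seen, so these counts are a description and carry no test.

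Of the 1648 tested genes of any kind in this position, 39.4 and 38.5% were higher at 24 h (10 and 3 µM) and 42.8 and 39.1% at 6 h, with medians of 0.06 and 0.06 and of 0.08 and 0.06. Among the 135 that are not protein coding in GENCODE 29, 34.8% were higher at either dose at 24 h, and 51.9 and 43.7% at 6 h, with medians of 0.38 and 0.41 and of 0.48 and 0.43. The window was varied after the data were seen. Within 2000 bases 3 of 3 LINC genes were higher in each comparison. Of all tested genes so placed, 41.5 and 40.0% were higher at 24 h (10 and 3 µM) and 44.2 and 40.2% at 6 h. Within 10000 bases 6 and 7 of 9 LINC genes were higher and 2 and 1 lower at 24 h. At 6 h 5 of 9 were higher at either dose, and 2 and 3 were lower. Of all tested genes within 10000 bases, 38.8 and 37.5% were higher and 32.8 and 31.6% lower at 24 h. At 6 h these shares were 40.8 and 37.4% higher and 34.0 and 32.1% lower. The 8 LINC genes that overlap a coding gene on the same strand had medians of 0.33 and 0.22 at 24 h and 0.33 and 0.09 at 6 h, and the 29 that lie apart had 0.09 and −0.01 at 24 h and −0.07 and −0.21 at 6 h.

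The upstream coding genes did not move with the LINC genes in the same way. PRPF6 had log2 fold changes of −0.15 ± 0.03 and −0.09 ± 0.03 at 24 h (10 and 3 µM) and −0.52 ± 0.03 and −0.40 ± 0.03 at 6 h, and passed as lower in all 4 comparisons. TCF12 passed as lower in all 4 as well, with −0.94 ± 0.03 and −0.78 ± 0.03 at 24 h and −0.61 ± 0.03 and −0.53 ± 0.03 at 6 h. HNRNPC had −0.22 ± 0.03 and −0.12 ± 0.03 at 24 h, both lower, and 0.08 ± 0.03 and 0.07 ± 0.03 at 6 h, of which the first passed as higher. CTC1 was higher at 24 h (0.53 ± 0.07 and 0.51 ± 0.07) and did not pass at 6 h (−0.10 ± 0.07 and −0.03 ± 0.07).

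**Figure D3:**
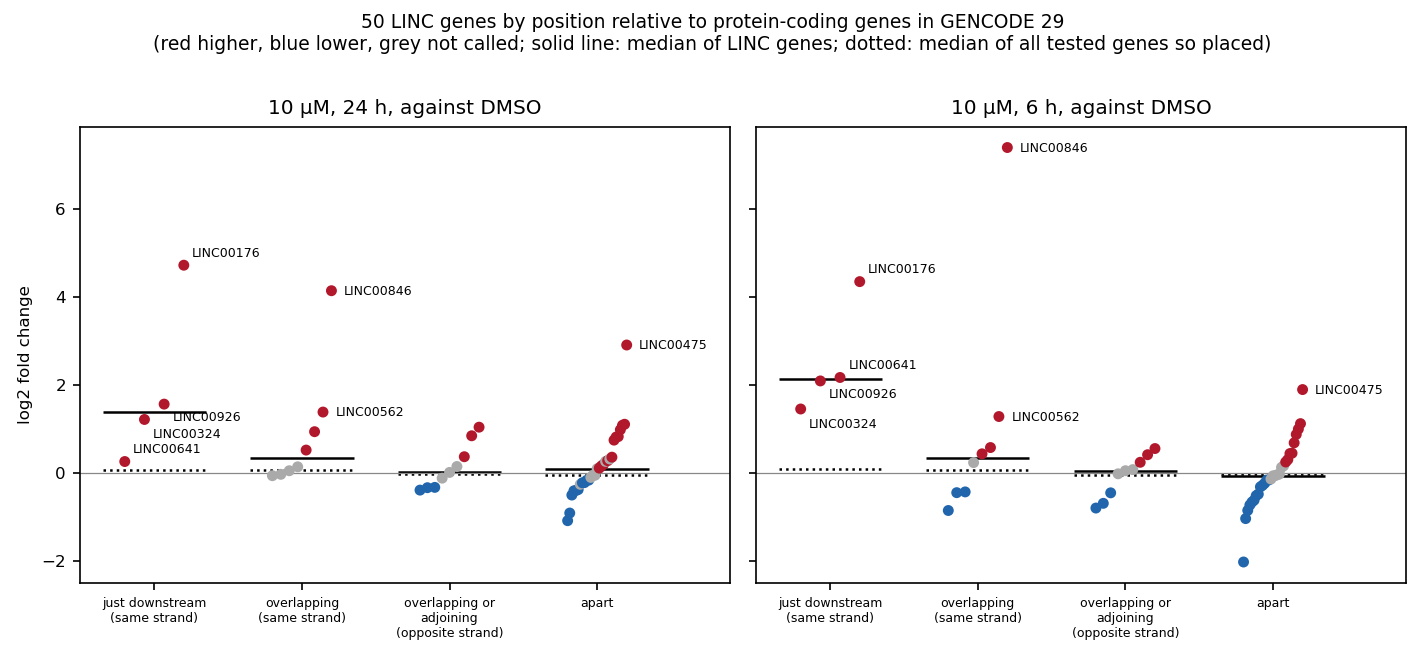
Log2 fold change (y axis) of 10 µM CC-671 against DMSO at 24 h (left panel) and 6 h (right panel) for the 50 LINC genes placed in GENCODE 29, by their position relative to protein-coding genes (x axis). Each point is a gene, red where it passed as higher, blue where it passed as lower and grey otherwise; solid lines are medians of the LINC genes and dotted lines medians of all tested genes so placed. The 4 genes just downstream of a coding gene are all red in both panels.

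The start regions of these genes and of LINC00472, the gene with the deepest falls at 24 h, are shown because LINC00176, LINC00641 and LINC00324 share that position and rose in all 4 comparisons, and LINC00472 fell in all 4. RefSeq's GRCh38.p14 start windows, from 250 bases before to 50 after an annotated start, were available for 38 of the 58 genes, with 46 windows in all; none was listed for LINC00926. The windows of LINC00176, LINC00324 and LINC00641 held few or none of 6 motifs searched on both strands, with overlaps allowed: the polyadenylation hexamer AATAAA, the TATA-type motif TATAAA, the E-box CACGTG, the GC box GGGCGG, the CCAAT box and the cyclic AMP response element TGACGTCA. The window of LINC00472 held 7 matches, 5 of CCAAT and 2 of GGGCGG, in a sequence of 68.7% G and C, against 62.0% in LINC00176, 53.3% in LINC00324 and 39.0 and 40.7% at the 2 starts of LINC00641. CCAAT was in 43.5% of the 46 windows and in 34.6% of 35116 windows of all genes, and GGGCGG was in 39.1% and 45.0%. The sequences run 5′ to 3′ on the gene's strand, with any match in capitals. A match is not a bound site, and no match says only that these letters are not in this window.
LINC00176, chr20:64035932-64036231, plus strand: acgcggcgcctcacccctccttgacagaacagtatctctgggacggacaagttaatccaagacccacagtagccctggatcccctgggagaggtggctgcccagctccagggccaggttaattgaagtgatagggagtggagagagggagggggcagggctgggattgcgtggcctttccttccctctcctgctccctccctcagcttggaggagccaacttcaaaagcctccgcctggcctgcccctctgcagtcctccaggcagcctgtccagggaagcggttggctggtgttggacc
LINC00641, chr14:21206851-21207150, minus strand: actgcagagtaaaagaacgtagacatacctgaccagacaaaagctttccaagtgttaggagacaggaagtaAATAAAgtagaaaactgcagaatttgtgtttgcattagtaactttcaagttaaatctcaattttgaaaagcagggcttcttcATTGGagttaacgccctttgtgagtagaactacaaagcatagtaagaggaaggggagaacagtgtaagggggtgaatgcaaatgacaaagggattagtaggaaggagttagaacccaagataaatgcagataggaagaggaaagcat
LINC00641, second start, chr14:21205454-21205753, minus strand: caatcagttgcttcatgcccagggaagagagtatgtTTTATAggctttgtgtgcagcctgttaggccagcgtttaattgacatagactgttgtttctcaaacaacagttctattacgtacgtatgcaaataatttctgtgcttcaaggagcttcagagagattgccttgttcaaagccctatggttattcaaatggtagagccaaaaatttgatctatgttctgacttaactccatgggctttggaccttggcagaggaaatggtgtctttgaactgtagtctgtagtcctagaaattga
LINC00324, chr17:8223994-8224293, minus strand: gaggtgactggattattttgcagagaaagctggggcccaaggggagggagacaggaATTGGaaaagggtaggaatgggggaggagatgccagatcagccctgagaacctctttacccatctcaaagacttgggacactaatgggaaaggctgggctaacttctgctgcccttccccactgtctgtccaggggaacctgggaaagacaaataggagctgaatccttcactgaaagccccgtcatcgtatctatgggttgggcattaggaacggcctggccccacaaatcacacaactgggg
LINC00472, chr6:71420696-71420995, minus strand: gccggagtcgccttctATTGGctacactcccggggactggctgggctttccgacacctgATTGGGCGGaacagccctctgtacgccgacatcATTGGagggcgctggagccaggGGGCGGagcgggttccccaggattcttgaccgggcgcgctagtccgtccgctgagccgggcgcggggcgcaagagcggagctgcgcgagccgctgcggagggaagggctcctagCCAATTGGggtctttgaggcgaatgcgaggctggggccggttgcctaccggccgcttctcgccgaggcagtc

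LINC00645 and LINC00472 led the falls. LINC00645, also among the 5 highest per length, had 51.8, 47.8 and 47.7 CPM at 10 µM and 48.1, 52.8 and 53.5 CPM at 3 µM at 24 h, against 92.8 and 92.4 CPM in DMSO. It had 13.7, 13.0 and 14.9 CPM at 10 µM and 18.6, 18.3 and 20.6 CPM at 3 µM at 6 h, against 55.5 and 57.9 CPM in DMSO. The groups were far apart at both times, and the 6 h treated libraries were the lowest of all 16. The log2 fold change was −0.92 ± 0.05 and −0.85 ± 0.05 at 24 h (10 and 3 µM; adjusted p = 9.98e-12 and 4.43e-11), and −2.03 ± 0.06 and −1.56 ± 0.06 at 6 h (4.68e-17 and 3.25e-15). Its level also differed between the vehicle groups, with a log2 difference of 0.71 ± 0.06 for DMSO at 24 h against DMSO at 6 h (adjusted p = 9.15e-08).

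LINC00472, described in breast tumours as a gene of low level in aggressive disease, had 4.95, 5.13 and 5.13 CPM at 10 µM and 5.23, 5.59 and 5.77 CPM at 3 µM at 24 h, against 10.7 and 10.9 CPM in DMSO. It had 7.12, 4.71 and 6.11 CPM at 10 µM and 5.63, 4.65 and 4.73 CPM at 3 µM at 6 h, against 11.2 and 13.5 CPM in DMSO. Every treated library was below every vehicle library, and the 10 µM libraries at 6 h were the most spread of the treated groups. Its log2 fold changes were −1.09 ± 0.13 and −0.96 ± 0.13 at 24 h (10 and 3 µM), and −1.04 ± 0.13 and −1.30 ± 0.13 at 6 h, all past the test.

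Smaller falls at both times and both doses were seen for LINC00467, LINC00662, LINC00958 and LINC00963. LINC00467 had log2 fold changes of −0.51 ± 0.06 and −0.36 ± 0.06 at 24 h (10 and 3 µM) and −0.62 ± 0.07 and −0.55 ± 0.07 at 6 h. LINC00662 had −0.40 ± 0.06 and −0.43 ± 0.06 at 24 h and −0.49 ± 0.06 and −0.47 ± 0.06 at 6 h. LINC00958, an abundant RNA first named in bladder cancer, had −0.17 ± 0.04 and −0.25 ± 0.04 at 24 h and −0.28 ± 0.04 and −0.30 ± 0.04 at 6 h. LINC00963, first described in prostate cancer cells, had −0.22 ± 0.06 and −0.20 ± 0.06 at 24 h and −0.73 ± 0.06 and −0.66 ± 0.06 at 6 h. LINC00958 no longer passed at 10 µM and 24 h when no scaling factor was used (adjusted p = 0.218).

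Other falls passed at 6 h and not at 24 h. LINC00338, the snoRNA host SNHG20, had 4.79, 4.87 and 4.98 CPM at 10 µM and 4.81, 4.87 and 4.55 CPM at 3 µM at 24 h, against 5.04 and 4.95 CPM in DMSO. It had 3.74, 3.16 and 3.51 CPM at 10 µM and 3.58, 3.12 and 3.34 CPM at 3 µM at 6 h, against 6.22 and 6.35 CPM in DMSO. The 6 h groups were well apart, while at 24 h the 10 µM and DMSO libraries overlapped. The log2 fold changes were −0.03 ± 0.07 and −0.07 ± 0.07 at 24 h (10 and 3 µM), which did not pass, and −0.86 ± 0.07 and −0.91 ± 0.07 at 6 h, and the difference between the times was 0.82 ± 0.10 at 10 µM and 0.84 ± 0.10 at 3 µM (adjusted p = 9.02e-08 and 1.08e-07). LINC00205 had 0.01 ± 0.06 and 0.08 ± 0.06 at 24 h and −0.69 ± 0.07 and −0.75 ± 0.07 at 6 h. LINC00338 overlaps SEC14L1 on the same strand in GENCODE 29, so its counts may include reads of that gene. Also lower at 6 h at both doses, with no call at 24 h, were LINC00174 (−0.45 and −0.55 at 6 h), LINC00342 (−0.67 and −0.50), LINC00857 (−0.52 and −0.52) and LINC00863 (−0.43 and −0.61). LINC00863 shares exon sequence with NUTM2D on the same strand, so its counts may include reads of that gene. NUTM2D passed as lower at 6 h (−1.36 ± 0.15 and −1.41 ± 0.15) and as higher at 24 h (0.55 ± 0.12 and 0.60 ± 0.12).

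For most LINC genes whose effect differed between the times, the 24 h effect was the higher one. At 10 µM, 23 of 58 had a higher and 8 a lower effect at 24 h than at 6 h by the test of the difference, where 54.0% of all genes passed, 27.6% higher and 26.4% lower. At 3 µM, 25 had a higher and 5 a lower effect, where 49.3% of all genes passed, 25.6% higher and 23.7% lower. The median difference over the 58 was 0.15 at 10 µM and 0.21 at 3 µM, against 0.00 and 0.01 over all genes. These doses share vehicle libraries at each time, so the pairs of counts are not separate evidence. The 58 were chosen with the treated libraries included, and this difference was not counted over the symbols chosen on vehicle alone.

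LINC00630 changed sides between the times. It had 4.55, 4.63 and 4.49 CPM at 10 µM and 4.20, 4.28 and 4.06 CPM at 3 µM at 24 h, against 3.41 and 3.71 CPM in DMSO, and each treated library was above both vehicle libraries. At 6 h it had 2.12, 1.85 and 2.06 CPM at 10 µM and 2.49, 2.04 and 2.30 CPM at 3 µM, against 3.30 and 3.99 CPM in DMSO, and each treated library was below both. The log2 fold changes were 0.36 ± 0.09 and 0.23 ± 0.09 at 24 h (10 and 3 µM), and −0.86 ± 0.09 and −0.68 ± 0.09 at 6 h. The difference was 1.21 ± 0.13 at 10 µM and 0.91 ± 0.13 at 3 µM (adjusted p = 5.29e-09 and 9.81e-07). The 24 h rise at 3 µM was lost when vehicle replicate 1 (adjusted p = 0.228) or 3 µM replicate 2 (0.0654) of that time was left out.

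LINC00941 passed as higher at 24 h only. It had 3.04, 3.08 and 2.80 CPM at 10 µM and 2.39, 2.51 and 2.86 CPM at 3 µM at 24 h, against 1.38 and 1.43 CPM in DMSO. It had 1.69, 1.41 and 1.43 CPM at 10 µM and 1.55, 1.18 and 1.75 CPM at 3 µM at 6 h, against 1.65 and 1.97 CPM in DMSO. The 24 h groups did not overlap, and the 6 h groups did. On the log2 scale the effects were 1.08 ± 0.13 and 0.88 ± 0.13 at 24 h (10 and 3 µM), and −0.26 ± 0.13 and −0.28 ± 0.13 at 6 h, and the difference was 1.34 ± 0.18 at 10 µM and 1.16 ± 0.19 at 3 µM (adjusted p = 5.42e-07 and 7.11e-06). LINC00265 followed a like course, with 0.82 ± 0.08 and 0.73 ± 0.08 at 24 h and −0.07 ± 0.08 and −0.21 ± 0.08 at 6 h, where the value at 3 µM passed as lower. That last call was lost under 5 of 13 other settings, among them DESeq2 (adjusted p = 0.0681) and the fits without vehicle replicate 1 (0.0712), vehicle replicate 2 (0.0809) or 3 µM replicate 2 (0.110) of that time.

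LINC00607 was the reverse, with a rise that passed at 6 h and not at 24 h. It had 0.493, 0.532 and 0.579 CPM at 10 µM and 0.559, 0.558 and 0.712 CPM at 3 µM at 24 h, against 0.676 and 0.601 CPM in DMSO. It had 0.545, 0.811 and 0.777 CPM at 10 µM and 0.762, 0.754 and 0.827 CPM at 3 µM at 6 h, against 0.384 and 0.387 CPM in DMSO. Its vehicle level was itself higher at 24 h than at 6 h (0.73 ± 0.21, adjusted p = 0.0125), a call that was lost without either vehicle replicate at 6 h (0.0754 and 0.0552) or without vehicle replicate 1 at 24 h (0.124). The differences between the effects were −1.14 ± 0.26 at 10 µM and −1.09 ± 0.26 at 3 µM (adjusted p = 0.000518 and 0.000827).

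**Figure D4:**
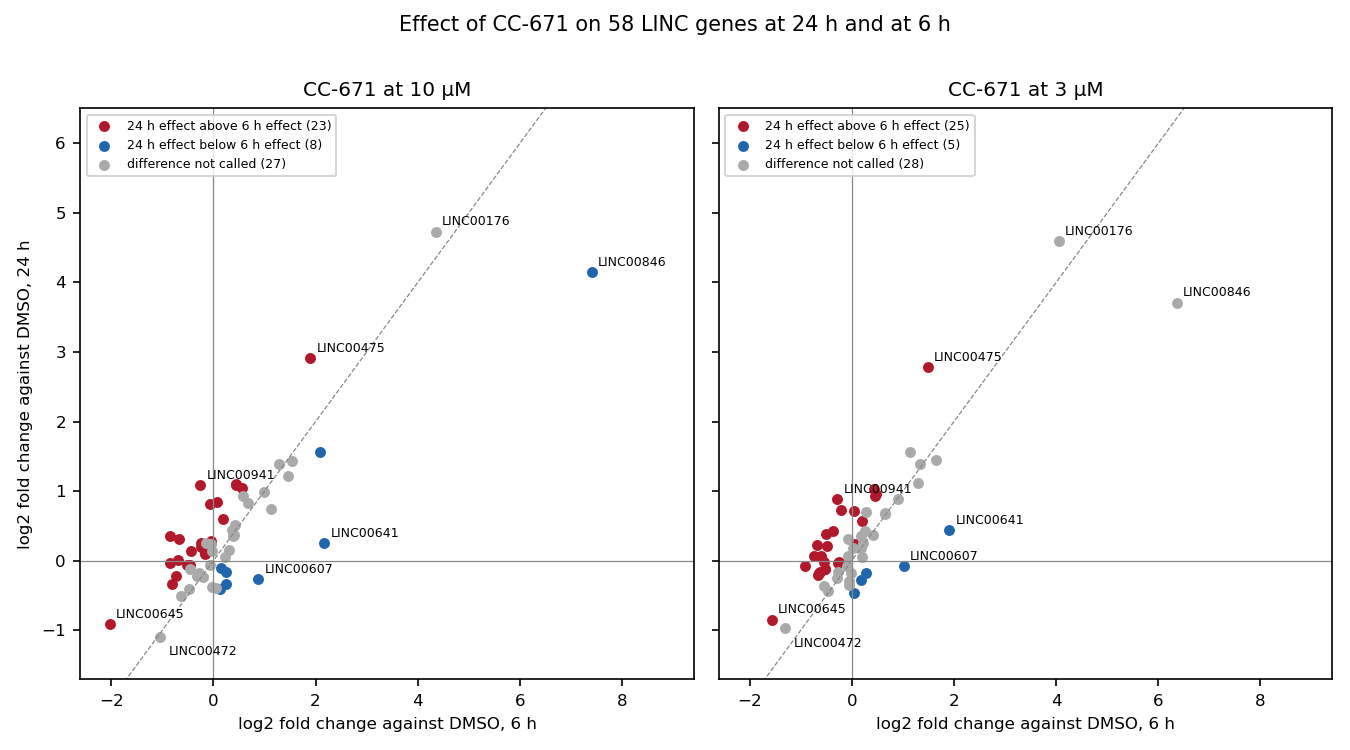
Log2 fold change of CC-671 against DMSO at 24 h (y axis) and at 6 h (x axis) for the 58 LINC genes (points) at 10 µM (left panel) and 3 µM (right panel). The dashed line marks equal effects; red and blue points passed the test that the 24 h effect was higher (23 and 25 genes) or lower (8 and 5 genes) than the 6 h effect, and LINC00641 and LINC00607 lie well below the line in both panels.

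Rises at both times were the most frequent pattern among the 58. At 10 µM, 20 genes passed as higher at both times and 8 as lower at both, 8 were lower at 6 h and did not pass at 24 h, and 4 were lower at 6 h and higher at 24 h. At 3 µM the same counts were 19, 8, 10 and 4. Over all genes at 10 µM, 18.8% were higher at both times, 19.4% lower at both, 9.12% lower at 6 h alone and 5.06% lower and then higher. Over the LINC genes these shares were 34.5, 13.8, 13.8 and 6.9%. At 3 µM they were 17.2, 18.4, 9.21 and 4.0% of all genes and 32.8, 13.8, 17.2 and 6.9% of the LINC genes. The rises at both times include all 4 genes that entered through the treated libraries at 10 µM and 3 of them at 3 µM. Over the 57 symbols chosen on vehicle alone, 16 were higher at both times at either dose (28.1%), and 12 were lower at both at 10 µM and 11 at 3 µM. LINC00094 and LINC00888 were the only 2 that passed as higher at 6 h and lower at 24 h at either dose. That is 3.45% of the LINC genes, against 5.43% of all genes at 10 µM and 4.68% at 3 µM.

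The direct comparison of doses at 6 h gave mostly higher values at 10 µM. Of the 58, 13 were higher and 1 lower at 10 µM than at 3 µM, where 24.9% of all genes passed, 12.0% higher and 12.9% lower, and the median was 0.06, against 0.01 over all genes. LINC00846 was higher by 1.05 ± 0.15 (adjusted p = 8.43e-06), LINC00638 by 0.47 ± 0.12 (0.00374), LINC00926 by 0.45 ± 0.08 (0.000293), LINC00641 by 0.27 ± 0.06 (0.00614) and NORAD by 0.21 ± 0.05 (0.00403). LINC00645 was the gene that was lower (−0.47 ± 0.06, adjusted p = 8.1e-06). The count of 14 dropped to 9 without 3 µM replicate 3 and to 8 without 10 µM replicate 3. The 58 were chosen on a mean that includes the libraries compared here, and LINC00846 entered only through the treated ones. This contrast was not counted over the symbols chosen on vehicle alone.

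At 24 h LINC00674 and LINC00493 were the 2 genes that differed between the doses, both higher at 10 µM, where 6.35% of all genes passed, 2.49% higher and 3.85% lower. LINC00674, annotated as a transcribed pseudogene, had 10.5, 9.94 and 10.5 CPM at 10 µM and 8.79, 8.92 and 8.83 CPM at 3 µM, which did not overlap, with a difference of 0.22 ± 0.05 (adjusted p = 0.00545). It had 8.99 and 9.04 CPM in DMSO at 24 h, above every 3 µM library and below every 10 µM library. Against DMSO, LINC00674 passed as higher at 10 µM and 24 h but not at 3 µM and 24 h. It passed as lower at both doses at 6 h. LINC00493 had 36.2, 37.3 and 36.2 CPM at 10 µM and 32.1, 32.9 and 33.7 CPM at 3 µM, with a difference of 0.15 ± 0.04 (adjusted p = 0.00946), which was lost without 3 µM replicate 1 (0.0648) or 10 µM replicate 2 (0.0692). The count was 8 when only the 2 groups compared were fitted, and 1 without 3 µM replicate 1 or without 10 µM replicate 2. For the other 56 genes the difference lay between −0.20 and 0.44 and did not pass, which does not show that the doses act alike.

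Without the compound, the LINC genes differed between the times in about the same share as all genes. In DMSO at 24 h against DMSO at 6 h, 5 of 58 were higher and 7 lower, where 20.5% of all genes passed, 11.0% higher and 9.55% lower. LINC00607, LINC00645 and LINC00263 were the largest rises that passed, with log2 differences of 0.73 ± 0.21, 0.71 ± 0.06 and 0.33 ± 0.08. LINC00936, LINC00338 and LINC00152 were the largest falls that passed, with log2 differences of −0.50 ± 0.17, −0.33 ± 0.08 and −0.31 ± 0.05. Each vehicle group has 2 libraries, and the count of 12 dropped to 6 without replicate 2 of DMSO at 6 h and to 7 without replicate 1 of DMSO at 24 h. The rise of LINC00607 was lost without any one of 3 vehicle libraries (adjusted p = 0.0552 to 0.124), that of LINC00263 without replicate 2 at 24 h (0.0857), and the fall of LINC00936 without any one of the 4 (0.0585 to 0.278).

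Among the 6 genes now listed as protein coding, apart from LINC00176, LINC00493 rose throughout. It encodes SMIM26, a small protein of mitochondria, and had 36.2, 37.3 and 36.2 CPM at 10 µM and 32.1, 32.9 and 33.7 CPM at 3 µM at 24 h, against 25.8 and 25.2 CPM in DMSO. It had 35.2, 37.1 and 33.9 CPM at 10 µM and 33.8, 35.7 and 35.3 CPM at 3 µM at 6 h, against 26.8 and 25.6 CPM in DMSO. The groups did not overlap, and the log2 fold changes were 0.52 ± 0.04 and 0.37 ± 0.04 at 24 h (10 and 3 µM) and 0.43 ± 0.04 and 0.42 ± 0.04 at 6 h. LINC00984, now INAFM2, was higher in all 4, by 0.16 to 0.30. Its calls at 10 µM and 24 h and at 3 µM and 6 h were lost when single libraries were left out, with an adjusted p of up to 0.0802 without vehicle replicate 2 at 24 h and of 0.283 without vehicle replicate 1 at 6 h.

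LINC00094, now BRD3OS and named for lying opposite the bromodomain gene BRD3, changed sides with time. It had 25.4 ± 0.521 and 26.4 ± 0.201 CPM at 24 h (10 and 3 µM), against 32.1 ± 0.297 CPM in DMSO, and 37.7 ± 0.561 and 36.2 ± 0.865 CPM at 6 h, against 31.9 ± 0.320 CPM in DMSO. The log2 fold changes were −0.34 ± 0.04 and −0.28 ± 0.04 at 24 h and 0.24 ± 0.04 and 0.18 ± 0.04 at 6 h, all past the test. LINC00085, now the sperm-egg fusion factor SPACA6, and LINC00959, now C10orf143, were lower at 10 µM and 24 h (−0.39 ± 0.15 and −0.38 ± 0.13) and did not pass in the other 3 comparisons. Both calls were lost without vehicle replicate 1 of that time (adjusted p = 0.0722 for LINC00085 and 0.0719 for LINC00959), and LINC00085 also without vehicle replicate 2 (0.170), 10 µM replicate 2 (0.0597) or 10 µM replicate 3 (0.0951), and LINC00959 without 10 µM replicate 1 (0.0571).

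Of the genes with another non-coding name, CYTOR (LINC00152), an RNA reported to promote growth and migration of cancer cells, moved little. It had 16.1 ± 0.471 and 15.7 ± 0.286 CPM at 24 h (10 and 3 µM), against 14.9 ± 0.398 CPM in DMSO, and 16.6 ± 0.749 and 17.6 ± 0.197 CPM at 6 h, against 18.5 ± 0.379 CPM in DMSO. Its log2 fold changes were 0.11 ± 0.05 and 0.07 ± 0.05 at 24 h (10 and 3 µM) and −0.16 ± 0.04 and −0.08 ± 0.04 at 6 h, and those at 10 µM passed. The one at 24 h was lost under 7 of 13 other settings, with an adjusted p of up to 0.269 without vehicle replicate 2. OLMALINC (LINC00263), named for oligodendrocyte maturation, had −0.23 ± 0.07 and −0.12 ± 0.07 at 24 h and −0.32 ± 0.07 and −0.52 ± 0.07 at 6 h, and the value at 3 µM and 24 h alone did not pass. At 10 µM and 24 h it was lost without vehicle replicate 2 (0.169). MIR99AHG (LINC00478), the host of a microRNA cluster, passed once, with 0.20 ± 0.08 at 3 µM and 6 h, against 0.16 ± 0.08 at 10 µM and 6 h and −0.10 ± 0.08 and 0.05 ± 0.08 at 24 h, and that call was lost without vehicle replicate 1 (0.196), 3 µM replicate 1 (0.111) or 3 µM replicate 3 (0.0793) of 6 h. SNHG33 (LINC00888) had −0.17 ± 0.05 and −0.18 ± 0.05 at 24 h and 0.25 ± 0.05 and 0.29 ± 0.05 at 6 h, and its falls at 24 h did not pass without a scaling factor (0.329 and 0.179).

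The other renamed genes went both ways. EOLA2-DT (LINC00894) had log2 fold changes of 1.04 ± 0.12 and 0.96 ± 0.12 at 24 h (10 and 3 µM) and 0.55 ± 0.14 and 0.48 ± 0.14 at 6 h. ZNF407-AS1 (LINC00909) had 0.37 ± 0.05 and 0.26 ± 0.05 at 24 h and 0.41 ± 0.05 and 0.21 ± 0.05 at 6 h, and MIR570HG (LINC00969) had 0.45 ± 0.10 and 0.43 ± 0.10 at 24 h and 0.37 ± 0.10 and 0.25 ± 0.10 at 6 h. MIR924HG (LINC00669) had 0.59 ± 0.05 and 0.58 ± 0.05 at 24 h and 0.20 ± 0.05 and 0.20 ± 0.05 at 6 h. ATP2B1-AS1 (LINC00936) passed at 24 h (0.84 ± 0.15 and 0.71 ± 0.15) and not at 6 h (0.07 ± 0.14 and 0.04 ± 0.14). ERCC6L2-AS1 (LINC00476) had −0.33 ± 0.13 and −0.18 ± 0.13 at 24 h, of which the first passed as lower, and −0.80 ± 0.13 and −0.63 ± 0.13 at 6 h, both lower. ICMT-DT (LINC00337) passed only at 3 µM and 24 h (0.31 ± 0.12), DUBR (LINC00883) only as lower at 6 h (−0.17 ± 0.07 and −0.25 ± 0.07), and TIMM23B-AGAP6 (LINC00843) in none of the 4. Leaving out vehicle replicate 1 at 6 h ended the calls at 3 µM for LINC00909 (adjusted p = 0.101) and LINC00969 (0.325) and that at 10 µM for LINC00969 (0.0605). The call of LINC00476 at 10 µM and 24 h was lost without vehicle replicate 1 (0.305) or 10 µM replicate 3 (0.110), that of LINC00337 without either vehicle replicate (0.0839 and 0.120) or 3 µM replicate 2 (0.125), and that of LINC00883 at 10 µM without vehicle replicate 2 (0.168) or 10 µM replicate 1 (0.0587).

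The members not yet described complete the class. LINC00240, LINC00680 and LINC00937 were higher in all 4 comparisons, with log2 fold changes of 1.11 and 0.93, 0.83 and 0.69, and 1.08 and 1.03 at 24 h (10 and 3 µM), and 0.45 and 0.46, 0.68 and 0.66, and 0.44 and 0.44 at 6 h. LINC00852, another gene under the minimum in vehicle, was higher in 3 of the 4 and did not pass at 3 µM and 6 h (0.28). LINC00511, reported as raised in breast cancer, was slightly higher at 24 h (0.28 ± 0.05 and 0.24 ± 0.05) and did not pass at 6 h (−0.04 ± 0.05 and 0.06 ± 0.05). LINC00488 was lower at 24 h (−0.41 and −0.47) and did not pass at 6 h. LINC00849 was higher at 24 h (0.26 and 0.21) and lower at 6 h (−0.24 and −0.48), and so was LINC00663 at 3 µM (0.42 at 24 h and −0.36 at 6 h). LINC00339 was lower except at 10 µM and 24 h, and LINC00086 passed only there, as higher (0.24). LINC00087 and LINC00106 passed in none of the 4.

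Other classes of long non-coding RNA were counted by the same rule. Of 189 antisense genes (symbols with -AS) at the same minimum level, 93 were higher and 42 lower at 10 µM and 24 h, and 95 and 39 at 3 µM, with medians of 0.25 and 0.24. At 6 h, 78 were higher and 59 lower at 10 µM, and 70 and 63 at 3 µM. The shares at 10 µM and 24 h, 49.2% higher and 22.2% lower, stand beside 31.3% and 32.3% of all genes. At 3 µM and 24 h, 29.7% of all genes were higher and 30.9% lower. At 6 h these shares were 34.0 and 33.6% at 10 µM and 31.6% in each direction at 3 µM. The minimum averages treated and vehicle libraries here too, so these counts are also tilted towards rises. Of the 173 antisense genes with a vehicle mean of at least 0.5 CPM, 77 were higher and 45 lower at 10 µM and 24 h, and 79 and 41 at 3 µM, and at 6 h 63 were higher and 62 lower at 10 µM, and 56 and 65 at 3 µM. Of 14 snoRNA host genes (SNHG symbols), 11 were higher and 2 lower at 10 µM and 24 h, and 9 and 2 at 3 µM, with 10 higher at either dose at 6 h and 2 and 3 lower, and the choice on vehicle alone gave the same counts. These classes were not tested against the LINC genes.

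A list of 34 long non-coding RNAs with well-known names, of which 31 were tested, had 15 higher and 11 lower at 10 µM and 24 h, 13 and 11 at 3 µM, 10 and 12 at 10 µM and 6 h, and 8 and 13 at 3 µM and 6 h, with medians of 0.11, −0.03, −0.02 and −0.03. Of all genes, 63.6 and 60.6% passed in either direction at 24 h and 67.6 and 63.2% at 6 h (10 and 3 µM). The largest changes of the list at 10 µM and 24 h were in H19, an imprinted RNA (−2.12 ± 0.11), ZFAS1, a snoRNA host (1.76 ± 0.04), NEAT1, the scaffold of paraspeckles (1.63 ± 0.25), and TERC, the telomerase RNA (−1.51 ± 0.29). MALAT1, an abundant nuclear RNA, averaged 141.5 and 114.6 CPM at 24 h (10 and 3 µM), against 73.4 CPM in DMSO, and 38.8 and 36.8 CPM at 6 h, against 78.1 CPM in DMSO, and passed in all 4 comparisons, as higher at 24 h and lower at 6 h. Both p53-responsive RNAs of a list of 7 that were in the files, NEAT1 and TP53TG1, passed as higher at 24 h at both doses. TP53TG1 did so also at 6 h (0.26 ± 0.08 at 10 µM and 0.37 ± 0.08 at 3 µM), and NEAT1 did not (0.44 ± 0.24 and 0.14 ± 0.24).

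The labelled cell type was checked against markers. All 6 epithelial markers were detected, with summed levels of 1796 to 1925 CPM in treated and 1595 to 1826 CPM in vehicle libraries. Of 5 receptor and lineage genes of luminal cells, ESR1 and PGR were near 0, with group means of 0.00296 to 0.0321 CPM. ERBB2, FOXA1 and GATA3 were expressed in every group. ERBB2 was the highest of the 5, with group means of 88.0 to 117 CPM in treated and 183.5 to 190.5 CPM in vehicle groups, and passed as lower in all 4 comparisons. FOXA1 had 10.8 to 17.0 CPM in treated and 14.0 to 15.2 CPM in vehicle groups, and passed as lower at 24 h and higher at 6 h. GATA3 had 5.25 to 5.92 CPM in treated and 4.05 to 4.22 CPM in vehicle groups, and passed as higher in all 4. Of 8 leukocyte markers, CD3E was at or near 0, with group means up to 0.00916 CPM, and 5 passed the filter on low counts. PTPRC had group means of 5.28 to 9.27 CPM in treated and 9.93 to 12.7 CPM in vehicle groups. CD14 had 0.533 and 0.434 CPM at 24 h (10 and 3 µM), against 0.144 CPM in DMSO, and 2.77 and 1.69 CPM at 6 h, against 0.152 CPM in DMSO, and passed as higher in all 4 comparisons. The leukocyte markers summed to 6.17 to 12.5 CPM in treated and 10.9 to 13.8 CPM in vehicle libraries. Of 6 fibroblast and vessel markers measured, DCN was at or near 0, whereas COL3A1 had group means of 215 to 255 CPM in treated and 199 to 239.9 CPM in vehicle groups, and PDGFRB had 31.4 to 44.1 CPM in treated and 54.8 to 71.5 CPM in vehicle groups. All 5 that were tested were lower at 10 µM and 24 h, 4 at 3 µM and 24 h, and 2 were higher and 2 lower at either dose at 6 h. Their summed level was 258 to 318 CPM in treated and 264 to 333 CPM in vehicle libraries. Mesenchymal markers, which this line also expresses, summed to 1589 to 1995 CPM in treated and 1684 to 2359 CPM in vehicle libraries. The part of any of these in the results was not tested.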

How the data were processed

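Polyadenylated RNA of CAL51 cells was sequenced as strand-specific read pairs of 2 x 100 bases, per the labels' protocols. The deposited table holds whole-number counts of read pairs per gene symbol for 16 libraries; per the submitters' processing notes, HTSeq, STAR and edgeR were used with hg19, also called GRCh37. Neither tool versions nor the strand setting of the counting is given in the sources used here. Rows that name no gene were left out of totals. Counts were fitted with edgeR 4.0.16 (R 4.3.3): TMM factors of 0.963 to 1.05, filterByExpr (minimum count 10, total 15), which kept 22007 genes and all 58 members, robust quasi-likelihood F tests on 6 group means, and Benjamini-Hochberg adjustment over all genes tested, with adjusted p under 0.05 as the threshold. Printed levels are CPM with these factors (the selection used CPM without them), SD is over the libraries of a group, and ± beside a log2 fold change is its standard error.

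The members and lists were chosen with earlier results of these data known. Genes were named by rule: the 5 largest called rises and falls of each treatment comparison, the 3 largest of each other contrast, the 6 highest in CPM, and members listed by RefSeq as protein coding or under another name; members outside it were named after their values were seen. GENCODE 29 (GRCh38) and RefSeq GRCh38.p14 gave names, neighbours, lengths and sequences only. Alternatives were RLE or no scaling, other filters, DESeq2 1.42.0, limma-voom (limma 3.58.1), a replicate block, only the groups compared, other level minimums and each library left out.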

Additional observations from a re-analysis of the deposited data

Results flagged for a closer look

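The values here are LINC genes whose effect against DMSO differed between 24 h and 6 h by the test of the difference itself (the 24 h effect minus the 6 h effect, log2; edgeR's quasi-likelihood test, adjusted over all genes), taken as the 3 largest in each direction at each dose. Both doses were set against the same vehicle libraries, so the doses are not separate evidence.

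At 10 µM the 24 h effect was higher for LINC00941 (1.34, adjusted p = 5.42e-07), LINC00630 (1.21, 5.29e-09) and LINC00645 (1.12, 3.67e-10). It was lower for LINC00846 (−3.26, 0.0339), LINC00641 (−1.91, 1.26e-09) and LINC00607 (−1.14, 0.000518). The value of LINC00846 rests on 4 vehicle counts at 24 h and 2 at 6 h, and it was lost without vehicle replicate 1 at 24 h (0.384) or at 6 h (0.134). For LINC00645 and LINC00607 the vehicle level also differed between the times (0.71 and 0.73).

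At 3 µM the 24 h effect was higher for LINC00475 (1.29, adjusted p = 0.00254), LINC00941 (1.16, 7.11e-06) and LINC00265 (0.94, 9.91e-08). It was lower for LINC00641 (−1.46, 3.71e-08), LINC00607 (−1.09, 0.000827) and LINC00488 (−0.52, 0.00128). The value of LINC00475 was lost without vehicle replicate 2 at 6 h (0.0594).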

How the results depend on the processing

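Of 181 called values of named genes, recomputed 2542 times in all, 137 kept their call under every alternative run and 44 lost it at least once; none changed sign. The number of LINC genes called stayed within 1.5 times of the main count under every other scaling, filter and test, except that fitting only the groups compared gave 8 genes, in place of 2, for 10 against 3 µM at 24 h. Leaving out 1 library gave 35 to 40 genes (10 µM) and 34 to 39 (3 µM) against DMSO at 24 h, 41 to 44 and 38 to 43 at 6 h, 1 to 2 and 8 to 15 for 10 against 3 µM at 24 h and 6 h, 6 to 9 for DMSO at 24 h against 6 h, and 25 to 32 (10 µM) and 23 to 32 (3 µM) for the difference of effects between the times. The counts on vehicle level alone stand in the main text. Vehicle groups of 2 libraries and vehicle counts of 4 or fewer limit LINC00846 most, and intervals on counts cover counting error only.

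With the replicate number as a block, 41 and 39 genes were called at 24 h (10 and 3 µM), 43 and 44 at 6 h, 2 and 11 for 10 against 3 µM at 24 h and 6 h, 11 for DMSO at 24 h against 6 h, and 31 and 29 for the differences of effects. Same-numbered libraries did not deviate together: over 36 pairs r was −0.0757 to 0.0808, with none over 0.1. In the vehicle groups the deviations are mirror images of each other, so these pairs are not independent. The check cannot exclude that same-numbered libraries were handled together.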

Other observations

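LINC genes below the level minimum were also counted, and 74 of them passed the filter on low counts. At 10 and 3 µM, 26 and 23 of these were higher at 24 h and 12 and 8 lower, and 28 and 27 were higher at 6 h and 10 and 8 lower. Of all genes tested, 31.3 and 29.7% were higher and 32.3 and 30.9% lower at 24 h (10 and 3 µM). At 6 h, 34.0 and 31.6% were higher and 33.6 and 31.6% lower. A LINC gene below the minimum can pass the filter through the treated libraries alone, so the counts of these genes are tilted towards rises.

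Several were nearly absent in vehicle. LINC00593 had 85 read pairs in all at 10 µM and 48 at 3 µM at 6 h, against 0 in DMSO, and 7 and 5 at 24 h, against 0 in DMSO. LINC00865 had 105 and 39 at 6 h, against 1 in DMSO, and 9 and 4 at 24 h, against 1 in DMSO. LINC00595 had 68 and 35 at 6 h, against 1 in DMSO, and 28 and 24 at 24 h, against 3 in DMSO. These sums are over 3 treated libraries and 2 vehicle libraries, and the genes were chosen after their values were seen.

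LINC00173, whose mean was above the minimum in vehicle and below it over all libraries, was lower in all 4 comparisons, with log2 fold changes of −1.44 ± 0.21 and −1.27 ± 0.21 at 24 h and −1.97 ± 0.23 and −1.96 ± 0.23 at 6 h (10 and 3 µM), all past edgeR's test over all genes.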
